A study of Mus musculus with 11 samples.

Results

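Small leucine-rich proteoglycans (SLRPs) are secreted proteins of the extracellular matrix whose curved leucine-rich repeats bind collagen fibrils. The 8 members described here were chosen by symbol: Dcn (decorin), Bgn (biglycan), Aspn (asporin), Lum (lumican), Fmod (fibromodulin), Prelp (a proline- and arginine-rich member), Ogn (osteoglycin, or mimecan) and Podn (podocan). All 8 were found among the 24969 gene names of the bulk count table, all 8 passed its low-count filter among 14893 tested genes, and all 8 were listed in each of 3 single-cell matrices. The members were not chosen by a threshold on expression, but they were chosen with earlier results of these data known.

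The tissue was the small-intestinal wall of the mouse, with the outer muscle stripped and the epithelium removed before the remaining cells were released with collagenase. Telocytes and PDGFRAlo cells were the GFP-high and GFP-low cells of the PDGFRAH2BEGFP reporter mouse, in which nuclear GFP reports expression of the receptor gene Pdgfra, so both stromal groups carry the reporter. Blood endothelial cells (CD31+LYVE1-) and lymphatic endothelial cells (CD31+LYVE1+) were sorted from C57BL/6 mice. Each of these 4 groups has 2 bulk RNA-seq libraries, and the labels do not say whether the 2 came from separate animals, so p-values measure the spread between libraries, which may be technical. Droplet single-cell RNA-seq covered 1 library of sorted PDGFRA-GFP cells, which mixed GFP-low and GFP-high cells by design, and 2 libraries of whole mesenchyme, for which the labels repeat the text on sorting. The whole-mesenchyme libraries were treated as unsorted, as titled; 2647 and 2625 of their cells fell in the immune gate and 650 and 617 in the plasma-cell gate. No treatment was applied, and the age of the animals is not given in the sources used here. Mouse line differs with the bulk comparison of stroma against endothelium, and the 2 cannot be told apart there. Stromal and endothelial gates of whole mesenchyme come from the same libraries.

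As background, SLRPs fall into classes by sequence. Dcn, Bgn and Aspn are class I; the first 2 usually carry chondroitin or dermatan sulfate chains and Aspn lacks the usual attachment site for them. Lum, Fmod and Prelp are class II, and Lum and Fmod can carry keratan sulfate. Ogn is class III and Podn is class V. SLRPs limit the thickness and spacing of collagen fibrils, and several bind growth factors of the TGF-beta family or cell-surface receptors.

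Bulk libraries held 8549348 to 55382442 counts. Levels are given as CPM, each library's counts scaled to a common total with TMM factors, and compared by edgeR's quasi-likelihood test over all tested genes with Benjamini-Hochberg adjustment; a gene was called at an adjusted p under 0.05. Pdgfra was at 2401 and 2972 CPM in telocytes, against 329.5 and 471.2 CPM in PDGFRAlo cells, and at 0.54 to 30.2 CPM in endothelium. The telocyte marker list summed to 6624 and 7757 CPM in telocytes, against 532 and 480.5 CPM in PDGFRAlo cells, with all 8 markers above 1 CPM in both telocyte libraries. Lyve1 was at 6.74 and 44.5 CPM in blood endothelium, against 1919 and 3415 CPM in lymphatic endothelium. In bulk samples, fewer cells of a type and less RNA per cell cannot be told apart.

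Several members lie in runs of neighbouring SLRP genes (GRCm38, GENCODE M21). On chromosome 13, Ecm2, Aspn, Omd and Ogn lie in that order with no other protein-coding gene between them: Aspn spans 49544443 to 49567565 on the plus strand and Ogn spans 49608046 to 49624501 on the plus strand. On chromosome 10, Dcn (97479609 to 97518143, plus strand) is 46984 bp from Lum (97565128 to 97572703, plus strand), which is followed by Kera and Epyc. On chromosome 1, Prelp (133910304 to 133921414, minus strand) lies 115839 bp from Fmod (134037254 to 134048277, plus strand). Podn lies alone on chromosome 4 (108014791 to 108096445, minus strand) and Bgn alone on chromosome X (73483602 to 73495933, plus strand).

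The chromosome 13 neighbours Ogn and Aspn were called in opposite directions between telocytes and PDGFRAlo cells, and Prelp was the member called higher in lymphatic endothelium, so the 250 bases before the start of these 3 genes are shown, 5′ to 3′ on the gene's strand, from RefSeq on GRCm38.p6. Capitals mark TATAAA read on either strand, so TTTATA is also capitalised. The windows are chr13:49607765-49608014 (plus strand) for Ogn, chr13:49544193-49544442 (plus strand) for Aspn and chr1:133921402-133921651 (minus strand) for Prelp. They end at the RefSeq start, which differs from the GENCODE start given for Ogn and Prelp, so the Prelp window overlaps the printed span of its gene.
Ogn: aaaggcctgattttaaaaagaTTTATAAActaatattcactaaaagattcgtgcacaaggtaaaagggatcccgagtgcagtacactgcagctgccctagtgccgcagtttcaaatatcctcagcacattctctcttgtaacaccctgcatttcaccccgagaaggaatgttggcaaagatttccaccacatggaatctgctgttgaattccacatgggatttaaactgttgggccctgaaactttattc
Aspn: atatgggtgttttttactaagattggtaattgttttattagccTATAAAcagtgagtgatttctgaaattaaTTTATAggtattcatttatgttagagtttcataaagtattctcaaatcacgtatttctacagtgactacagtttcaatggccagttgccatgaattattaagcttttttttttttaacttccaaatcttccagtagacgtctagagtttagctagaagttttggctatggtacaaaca
Prelp: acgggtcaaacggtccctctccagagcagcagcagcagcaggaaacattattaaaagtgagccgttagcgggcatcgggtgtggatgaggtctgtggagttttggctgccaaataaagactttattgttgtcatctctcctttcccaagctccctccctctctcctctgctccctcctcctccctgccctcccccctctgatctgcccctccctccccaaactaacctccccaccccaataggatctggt
Ogn had an overlapping pair of matches 229 and 227 bases before its start, Aspn had matches 207 and 178 bases before its start, and Prelp had none. TATAAA occurred on either strand in 12.4% of 32851 RefSeq windows of this length. TGANTCA, searched on both strands, was in none of the 7 windows available for 6 of the 8 members, and in 6.75% of all windows. GGGCGG occurred 3 times before Bgn and 2 times in 1 of the Podn windows, and in 32.7% of all windows; CANNTG occurred in 6 of the 7 windows, all but that of Prelp, and in 66.2% of all windows. GC content was 42.0% for Ogn, 30.0% for Aspn and 55.6% for Prelp. These matches describe the letters of each window only.

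The stromal sorts held far more SLRP RNA than the endothelial sorts. The 8 members together took 1.59% and 1.26% of all counts in telocytes and 2.43% and 3.47% in PDGFRAlo cells, against 0.0250% to 0.0638% in the 4 endothelial libraries. Of the 8 members 7, Fmod being the exception, were called higher in PDGFRA stroma; 28.8% of all tested genes were called higher and 31.7% lower in this comparison, 60.5% in all. The median log2 fold of the members was 5.58, against -0.07 for all tested genes. Folds between stroma and endothelium average the groups of each side on the log2 scale, so they can differ from the ratio of mean CPM. In 6 members the groups did not overlap with stroma higher, which held for 20.8% of tested genes, and stroma was lower without overlap in none, against 20.4%.

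Among class I members, Dcn, which binds collagen and TGF-beta, was at 6234 and 4186 CPM in telocytes and 16868 and 25368 CPM in PDGFRAlo cells, against 205 and 167 CPM in blood and 252 and 90.9 CPM in lymphatic endothelium. Every stromal library was above every endothelial one, with a log2 fold of 5.88 (SE 0.50, adjusted p = 1.95e-05). Bgn, which binds collagen and in soluble form activates Toll-like receptors, had 957 and 843 CPM in telocytes and 1478 and 1373 CPM in PDGFRAlo cells, against 42.2 and 87.8 CPM in blood and 10.8 and 15.3 CPM in lymphatic endothelium. Its log2 fold between stroma and endothelium was 5.28 (SE 0.36, adjusted p = 7.01e-06), with no overlap. Aspn, which competes with Dcn for collagen, had 304 and 163 CPM in telocytes and 791 and 717 CPM in PDGFRAlo cells, against 8.40 to 30.2 CPM in endothelium. Its log2 fold was 4.62 (SE 0.39, adjusted p = 1.90e-05).

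Among class II members, Lum, which regulates fibril diameter and is best known from the cornea, had 2072 and 1827 CPM in telocytes and 3316 and 5069 CPM in PDGFRAlo cells, against 10.9 to 34.8 CPM in endothelium. Its log2 fold was 6.96 (SE 0.50, adjusted p = 8.62e-06). Prelp, which also binds heparan sulfate and is thought to anchor basement membranes, had 748 and 447 CPM in telocytes and 599 and 771 CPM in PDGFRAlo cells, against 12.1 and 20.6 CPM in blood and 227 and 505 CPM in lymphatic endothelium. It was called higher in stroma by 3.05 (SE 0.37, adjusted p = 1.43e-04 on the log2 scale), but its groups overlapped, since one lymphatic library was above one telocyte library. Fmod, a collagen-binding member abundant in tendon, had 0.285 and 0.0605 CPM in telocytes, from 4 counts and 1 count, and 4.76 and 13.3 CPM in PDGFRAlo cells, against 0 to 1.13 CPM in endothelium. Its log2 fold of 1.93 (SE 0.95) was not called (adjusted p = 0.107).

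Ogn, the class III member, had 2526 and 3025 CPM in telocytes and 351 and 621 CPM in PDGFRAlo cells, against 10.6 and 25.4 CPM in blood and 5.13 and 3.70 CPM in lymphatic endothelium. It had a log2 fold of 7.03 between stroma and endothelium (SE 0.46, adjusted p = 5.85e-06). Podn, a collagen-binding member first found in kidney podocytes, had 87.2 and 63.0 CPM in telocytes and 102 and 244 CPM in PDGFRAlo cells, against 0.0473 to 0.754 CPM in endothelium. Its log2 fold of 8.33 (SE 0.73, adjusted p = 2.26e-05) was the highest of the 8, against the lowest endothelial levels of the 7 called members. It was 9.69 without blood library 2 and 8.997 without lymphatic library 2.

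**Figure D1:**
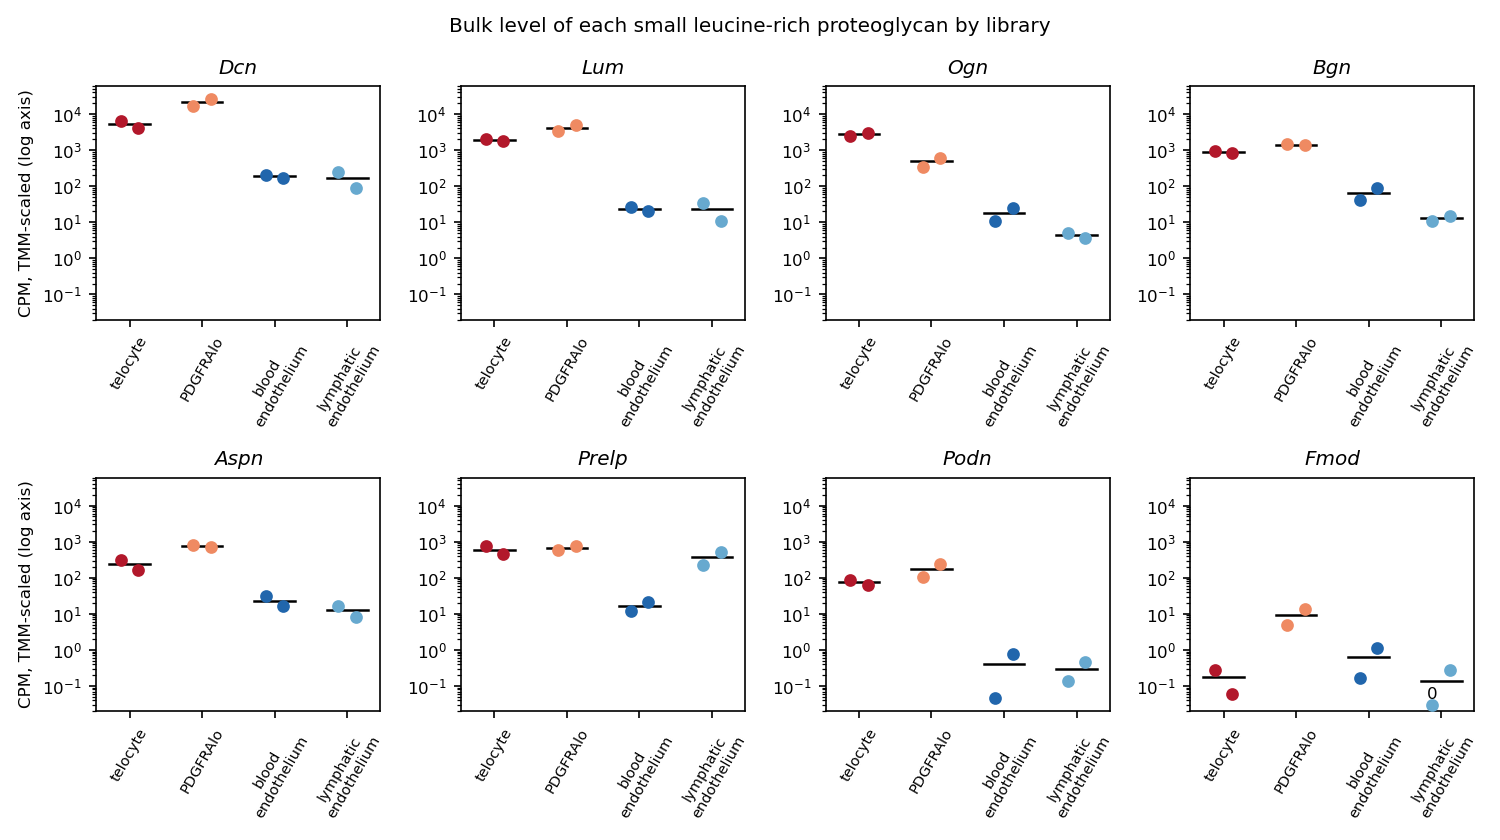
CPM of each member in the 8 bulk libraries (log axis), with 1 point per library and a line at each group mean; the Fmod value of 0 is drawn at the bottom of the axis. In 6 members both stromal groups stand above both endothelial groups, while Prelp in lymphatic endothelium (227 and 505 CPM) reaches the stromal range and Fmod stays below 14 CPM.

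Members differ in which stromal sort held more. Ogn was the only one of the 8 called higher in telocytes than in PDGFRAlo cells, Fmod and Aspn were called lower, and 5 were not called; over all tested genes 2.77% were called higher and 12.1% lower, 14.9% in all. The members' median log2 fold was -1.16, against -0.04 for all tested genes. In 6 members both telocyte libraries lay below both PDGFRAlo libraries and in 1, Ogn, above; such separation occurred in 32.5% and 29.2% of all tested genes, so with 2 libraries a group it is common.

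Ogn averaged 2776 ± 353 CPM in telocytes and 486 ± 191 CPM in PDGFRAlo cells (SD, n = 2 each), a log2 fold of 2.51 (SE 0.52, adjusted p = 0.0109). The call was lost without telocyte library 2 (adjusted p = 0.0530) and without PDGFRAlo library 1 (adjusted p = 0.0831). Its chromosome 13 neighbour Aspn averaged 233.5 ± 99.4 CPM in telocytes and 754 ± 51.9 CPM in PDGFRAlo cells (SD, n = 2 each), a log2 fold of -1.69 (SE 0.48, adjusted p = 0.0453). That call ended under DESeq2's size factors (adjusted p = 0.0505) and without any 1 of the 4 stromal libraries (adjusted p = 0.0667 to 0.323). Fmod averaged 0.173 ± 0.159 CPM in telocytes and 9.03 ± 6.05 CPM in PDGFRAlo cells (SD, n = 2 each), a log2 fold of -5.70 (SE 1.32, adjusted p = 0.0181). It rests on 5 counts in telocytes, and its call was lost without telocyte library 1 (0.0558), telocyte library 2 (0.132) or PDGFRAlo library 2 (0.103), with folds of -7.10, -4.96 and -4.76.

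Dcn averaged 5210 ± 1448 CPM in telocytes and 21118 ± 6010 CPM in PDGFRAlo cells (SD, n = 2 each), and its log2 fold of -2.02 (SE 0.59) just missed the threshold (adjusted p = 0.0504). It passed in DESeq2 (adjusted p = 0.00121), with no low-count filter (0.00732), without either lymphatic library (0.0241 and 0.0272) and with the replicate number as a block (log2 fold -2.11, adjusted p = 0.0373). Dcn made up 48.2% and 39.7% of the members' counts in telocytes, against 71.8% and 74.2% in PDGFRAlo cells. Lum averaged 1950 ± 174 CPM in telocytes and 4192 ± 1239 CPM in PDGFRAlo cells (SD, n = 2 each), a log2 fold of -1.10 with a 95% interval of -2.34 to 0.13 (adjusted p = 0.257). Bgn had a log2 fold of -0.66 (interval -1.62 to 0.29, adjusted p = 0.407) and Podn one of -1.21 (interval -2.79 to 0.38, adjusted p = 0.351), which was -0.43 without PDGFRAlo library 2. Prelp, whose libraries overlapped between the groups, had -0.20 (interval -1.30 to 0.90, adjusted p = 0.873).

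Markers listed for other cells also differed between these stromal sorts. All 6 blood endothelial markers were called lower in telocytes and summed to 55.7 and 38.9 CPM there, against 2374 and 834 CPM in PDGFRAlo cells. All 5 immune markers were called lower in telocytes, with sums of 30.7 and 26.9 CPM there, against 206 and 547 CPM in PDGFRAlo cells. Of 6 smooth muscle markers 4 were called lower and none higher in telocytes, with sums of 640 and 414 CPM there, against 493 and 256 CPM in PDGFRAlo cells. Those sums ran against the calls, and Myh11 made up most of them in telocytes. Myh11 was at 546 and 305 CPM in telocytes, against 193 and 82.4 CPM in PDGFRAlo cells. Of 5 pericyte markers 3 were called higher in telocytes, with sums of 2260 and 2290 CPM, against 1558 and 625 CPM in PDGFRAlo cells. The pericyte list is not particular to pericytes. In single cells it summed to 1661 CPM in the telocyte gate of the sorted library. In whole mesenchyme it summed to 1216 CPM in the telocyte gate, against 5957 CPM in pericytes. The part of other cells in the members' differences was not tested. In the endothelial libraries themselves Dcn was no higher than 252 CPM and Aspn no higher than 30.2 CPM. The 6 Grem1-Cd81 stromal markers summed to 147 and 147 CPM in telocytes, against 12440 and 17410 CPM in PDGFRAlo cells.

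Within endothelium, Prelp was the member with the largest difference. It was at a mean of 16.3 ± 6.03 CPM in blood, against 366 ± 197 CPM in lymphatic endothelium (SD, n = 2 each), a log2 fold of -4.49 (SE 0.56, adjusted p = 0.00179), with both blood libraries below both lymphatic ones; without lymphatic library 2 it was -3.78. Bgn was called higher in blood endothelium, at 65.0 ± 32.2 CPM against 13.0 ± 3.15 CPM in lymphatic endothelium (SD, n = 2 each; log2 fold 2.31, SE 0.45, adjusted p = 0.00775), and the fold was 1.70 without blood library 2. Ogn was also called higher in blood endothelium, at 18.0 ± 10.4 CPM against 4.41 ± 1.01 CPM in lymphatic endothelium (SD, n = 2 each; log2 fold 2.04, SE 0.53, adjusted p = 0.0248). The other 5 members were not called, with folds of 0.02 to 1.89 on the log2 scale; over all tested genes 14.7% were called higher and 8.32% lower, 23.0% in all. Groups did not overlap in 2 members with blood higher and 1 with blood lower, which held for 33.3% and 26.9% of tested genes. The members' median fold was 0.52, against 0.12 for all tested genes.

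The Ogn call between endothelial sorts was lost without blood library 2 (log2 fold 1.30, adjusted p = 0.116), without lymphatic library 1 (0.0727) or 2 (0.149), and in the 4 endothelial libraries alone (0.0515). Pdgfra itself was at 1.89 and 30.2 CPM in blood, against 0.540 and 0.941 CPM in lymphatic endothelium. Blood library 2, with the higher Pdgfra, also had the higher Ogn, Bgn, Prelp, Podn and Fmod. It had the lower Dcn (167 CPM, against 205 CPM in blood library 1), Lum (20.1 against 26.3 CPM) and Aspn (16.5 against 30.2 CPM). The part of stromal RNA in these levels was not tested. The 4 plasma-cell markers were all called lower in blood endothelium and summed to 5063 and 5137 CPM there, against 171800 and 66750 CPM in lymphatic endothelium. The lymphatic library with the larger plasma-cell sum had the lower Prelp level, and the part of plasma cells in the difference was not tested.

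**Figure D2:**
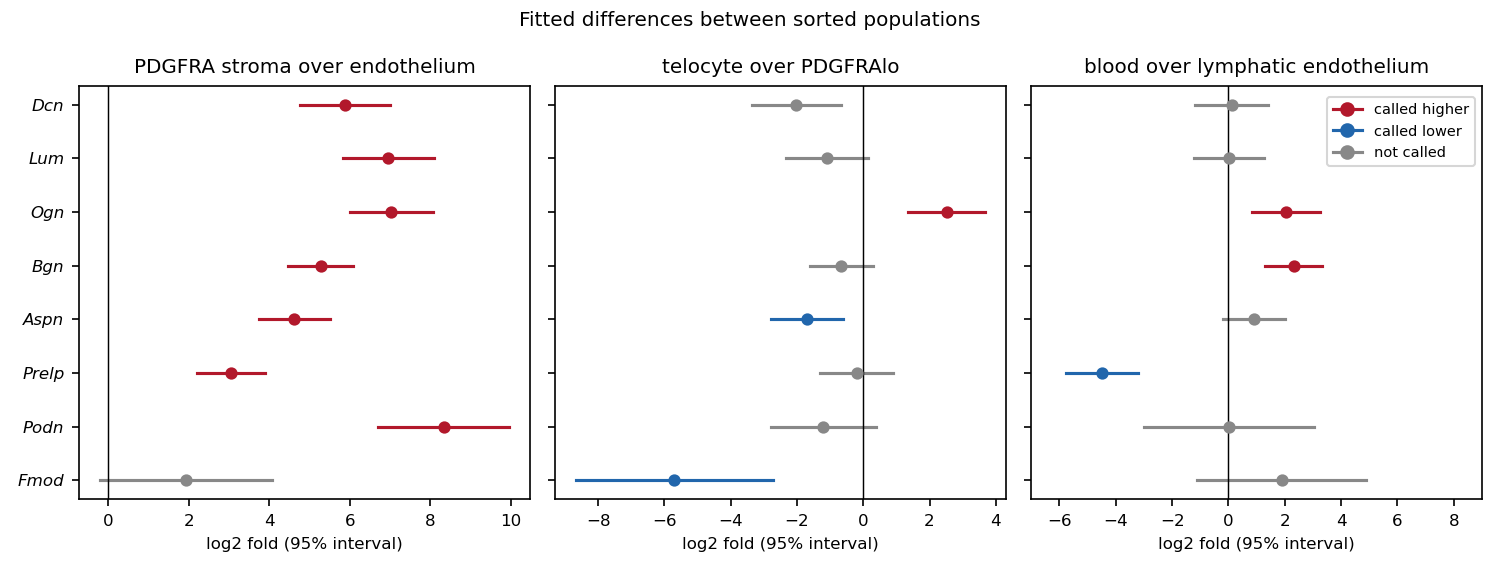
Fitted log2 fold of each member in the 3 bulk comparisons with its 95% interval; colour gives the call at an adjusted p under 0.05. Stroma against endothelium is called higher in 7 members, telocyte against PDGFRAlo splits Ogn (2.51) from Aspn (-1.69) and Fmod (-5.70), and Prelp (-4.49) stands apart from Bgn and Ogn between blood and lymphatic endothelium.

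Levels of different members can be compared only per length of gene. Per kilobase of exon, the mean levels in telocytes were 1082 CPM per kb for Ogn, 892 for Dcn and 796 for Lum, and neighbours in this order overlapped between libraries (985 and 1179 for Ogn, 1068 and 717 for Dcn, 847 and 746 for Lum). Prelp (165), Bgn (148) and Aspn (99.2 CPM per kb) followed, with Podn at 17.6 and Fmod at 0.0523. In PDGFRAlo cells Dcn led at 3617 CPM per kb, then Lum at 1712, Aspn at 320, Bgn at 234, Prelp at 190, Ogn at 189, Podn at 40.6 and Fmod at 2.73. Ogn and Prelp did not differ there beyond their spread. In blood endothelium Dcn led at 31.9 CPM per kb, while in lymphatic endothelium Prelp led at 101 and Dcn followed at 29.4. Per kilobase of coding sequence, Dcn came before Ogn in telocytes too, at 4906 against 3105 CPM per kb. By that length Bgn also came before Prelp in telocytes (813 against 527) and before Aspn in PDGFRAlo cells (1288 against 674). The order of these genes in both stromal sorts thus depends on which length is used.

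For each member, the 3 genes outside the list with the closest pattern over the 8 bulk libraries were found by Pearson's correlation of log2 CPM among 7770 genes whose mean was at least 20 CPM. These libraries are 4 populations and fall into stroma and endothelium, which differ in mouse line and in sort, so the correlations describe that split first. Dcn was most like Ms4a4d, Pcdh18 and Evc (0.994 to 0.995). Lum was most like Evc, C7 and Robo2 (0.994 to 0.997), and Aspn like Adamts10, Pcdh18 and Robo2 (0.988 to 0.997). Among the genes nearest to Ogn were Steap3 (0.993) and Hist1h2bm (0.9925). Bgn was closest to Cbx6, Yeats2 and Serpinh1, the collagen chaperone (0.994 to 0.995). Prelp was closest to Tgfb3, Dpp3 and Lman2l (0.986 to 0.994), Podn to B4galt2, Phlda3 and Dact1 (0.994 to 0.996), and Fmod to Deptor, Olfml2b and Cd248 (0.955 to 0.964).

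Genes that build, bind or receive SLRPs were counted by lists, and the genes named in these lists were called unless stated otherwise. Over all tested genes 28.8% were called higher and 31.7% lower in stroma than in endothelium. In telocytes against PDGFRAlo cells the shares were 2.77% and 12.1%, and in blood against lymphatic endothelium 14.7% and 8.32%. A list count near these shares says little about that list. Of 10 other SLRPs 8 were tested, and 3 were called higher in stroma, none lower and 5 not called (median log2 fold 2.20). Omd, the chromosome 13 neighbour of Ogn and Aspn, averaged 9.11 CPM in stroma and 0.0177 CPM in endothelium, and Chadl 5.82 CPM in stroma and 0.493 CPM in endothelium. Between telocytes and PDGFRAlo cells 3 of the 8 were called lower and none higher (median -1.50). Epyc, the class III member on the Dcn and Lum stretch of chromosome 10, had no count in either telocyte library, against 9.24 CPM over the summed counts of both PDGFRAlo libraries, at least 94.1-fold higher in PDGFRAlo cells when 3 counts are put over the telocyte group. Ecm2, next to Aspn, averaged 40.4 CPM in telocytes and 138 CPM in PDGFRAlo cells (log2 fold -1.77, adjusted p = 0.0111). Ecm2 was also the 1 of the 8 called between blood and lymphatic endothelium, at 8.62 CPM in blood, against 47.7 CPM in lymphatic endothelium (log2 fold -2.47), the same direction as Prelp. The next smallest p belonged to Optc, at a mean of 1.21 CPM in blood with no count in lymphatic endothelium, and it was not called.

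The enzymes that make chondroitin and dermatan sulfate chains were mixed between stroma and endothelium. Of 21 tested, 11 were called higher in stroma, 5 lower and 5 not called (median 0.78). Dsel, a dermatan sulfate epimerase, averaged 46.3 CPM in stroma and 8.80 CPM in endothelium (log2 fold 2.65). Csgalnact1, which starts chondroitin chains, averaged 6.92 CPM in stroma and 43.3 CPM in endothelium. Its fitted log2 fold of -4.33 is larger in size than these means give. It averages the stromal groups on the log2 scale, and these were unlike, at 0.299 CPM in telocytes and 13.5 CPM in PDGFRAlo cells. Between telocytes and PDGFRAlo cells 6 were called lower, none higher and 15 not called (median -0.16). Chst7, a chondroitin sulfotransferase, averaged 0.0303 CPM in telocytes and 29.8 CPM in PDGFRAlo cells (log2 fold -9.58), and Csgalnact1 0.299 CPM in telocytes and 13.5 CPM in PDGFRAlo cells (log2 fold -5.48). Between endothelial sorts 2 were called higher in blood, 1 lower and 18 not called (median 0.39), where 14.7% of all tested genes were called higher and 8.32% lower. Chst11, another chondroitin sulfotransferase, averaged 30.2 CPM in blood, against 2.86 CPM in lymphatic endothelium (log2 fold 3.41). Dsel averaged 13.7 CPM in blood, against 3.94 CPM in lymphatic endothelium (log2 fold 1.80).

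Of 6 tested genes of keratan sulfate synthesis, 3 were called higher and 3 lower in stroma than in endothelium (median -0.12). Chst2, a sulfotransferase, averaged 92.9 CPM in stroma and 22.9 CPM in endothelium, and B4galt4, a galactosyltransferase, 19.3 CPM in stroma and 69.4 CPM in endothelium. Between telocytes and PDGFRAlo cells 2 were called higher, 1 lower and 3 not called (median -0.20): Chst2 averaged 156 CPM in telocytes and 29.5 CPM in PDGFRAlo cells (log2 fold 2.41), and B4galt1 29.3 CPM in telocytes and 108 CPM in PDGFRAlo cells (log2 fold -1.88). Between blood and lymphatic endothelium 3 were called higher, none lower and 3 not called (median 1.00), Chst2 at 42.8 CPM in blood, against 2.86 CPM in lymphatic endothelium and B4galt4 at 118 CPM in blood, against 21.1 CPM in lymphatic endothelium.

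Collagens and the enzymes that process them tracked the stromal sorts. Of 15 tested, 13 were called higher in stroma, 1 lower and 1 not called, with a median log2 fold of 7.02. Col1a2 averaged 6404 CPM in stroma and 14.4 CPM in endothelium (log2 fold 9.16), and Col3a1 18337 CPM in stroma and 22.2 CPM in endothelium (log2 fold 9.39). Between telocytes and PDGFRAlo cells 1 was called higher, 4 lower and 10 not called (median -0.88). Pcolce2, an enhancer of procollagen cleavage, averaged 0.107 CPM in telocytes and 168 CPM in PDGFRAlo cells (log2 fold -10.63), and Col14a1, a fibril-associated collagen that is also on the marker list of the remaining PDGFRA stroma, 164 CPM in telocytes and 1416 CPM in PDGFRAlo cells (log2 fold -3.11). Between blood and lymphatic endothelium 7 were called higher, none lower and 8 not called (median 1.80), including Lox, the collagen cross-linking oxidase (log2 fold 4.53), and Bmp1, the procollagen protease (log2 fold 1.80).

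Of 9 receptors reported to bind soluble SLRPs, 3 were called higher in stroma, 4 lower and 2 not called (median -0.30). Over all tested genes 28.8% were called higher and 31.7% lower, so these counts are near the general shares. Egfr averaged 103 CPM in stroma and 0.571 CPM in endothelium, and Lrp1, an endocytic receptor for decorin, 885 CPM in stroma and 11.6 CPM in endothelium. Between telocytes and PDGFRAlo cells 4 were called lower, none higher and 5 not called (median -0.81): P2rx7 averaged 5.15 CPM in telocytes and 27.6 CPM in PDGFRAlo cells, and Kdr, a VEGF receptor of endothelium, 6.78 CPM in telocytes and 255 CPM in PDGFRAlo cells, where the blood endothelial markers were also higher. Between endothelial sorts 3 were called higher in blood, 1 lower and 5 not called (median 0.32), with Met at 31.7 CPM in blood, against 1.31 CPM in lymphatic endothelium and Kdr at 1060 CPM in blood, against 181 CPM in lymphatic endothelium.

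The single-cell libraries show which cells within these sorts carried each member. After filters 3845 cells of the sorted library and 6128 and 5927 cells of the whole-mesenchyme libraries were kept, with median depths of 4836, 5210 and 5171 UMIs. Cells were placed in 12 gates by marker genes that hold no member; 5 of them are stromal, and the telocyte gate held 965, 101 and 105 cells. Pdgfra was at 1042, 1318 and 1252 CPM in the telocyte gate of the 3 libraries and at 123 to 243 CPM in the 4 other stromal gates. The 2 whole-mesenchyme libraries agreed within sampling noise over all gates combined and are counted as 1 sample; they share 9 barcodes. There is therefore 1 sample of each kind and no test: values are UMIs summed per gate, as CPM, given for the sorted library, whole mesenchyme 1 and whole mesenchyme 2, and 95% intervals are exact Poisson or binomial ones that cover counting error only. The sorted library held 9 immune, 4 plasma, 1 pericyte and 1 blood endothelial cell in non-stromal gates, and no value is given for a gate with fewer than 10 cells, so levels of non-stromal gates are those of whole mesenchyme 1 and 2.

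Dcn followed the Grem1-Cd81 stromal gate, a GREM1-expressing stroma with Cd81, Ackr4 and Cd34. It was at 30809, 25804 and 25277 CPM there and at 26990, 25243 and 23142 CPM in the Pi16 gate. In the Dkk2-Adamdec1 gate it was at 18736, 15340 and 15205 CPM, in the Mmp10-Aldh1a3 gate at 10988, 5369 and 6000 CPM, and in the telocyte gate at 7533, 4059 and 3762 CPM. The telocyte gate was thus the lowest of the 5 stromal gates in all 3 libraries. Its ratio to the Grem1-Cd81 gate was 0.245 in the sorted library (interval 0.242 to 0.247) and 0.153 over both whole-mesenchyme libraries (0.149 to 0.157). Smooth muscle cells held 2094 and 2072 CPM, pericytes 805 and 761 CPM with a UMI in 13 of 43 cells (30.2%), blood endothelium 212 and 42.5 CPM and immune cells 88.1 and 84.1 CPM.

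Free Dcn RNA was plentiful. Barcodes with too few UMIs to be cells held Dcn at 15782 CPM in the sorted library and at 2102 and 2088 CPM in whole mesenchyme. The telocyte level of Dcn was also higher in the sorted library. Free Ogn RNA was likewise higher in the sorted library, at 315 CPM against 52.0 and 51.9 CPM in whole mesenchyme. The telocyte level of Ogn was lower in the sorted library, at 1021 CPM against 1286 and 1236 CPM. Taking free RNA off was run on whole mesenchyme only. Each gate lost 3.50% of the low-UMI barcode level, a share set from the members' own levels in immune and plasma cells. The log2 ratio of Dcn between the telocyte gate and the Grem1-Cd81 gate was then -2.73, against -2.71 as counted. So small a share could move this ratio little. In the sorted library the part of free RNA was not tested. With every cell thinned to 2000 UMIs, 87.2% of telocyte-gate cells and all cells of the Grem1-Cd81 gate of whole mesenchyme had a Dcn UMI, against 8.53% of immune cells and 5.93% of plasma cells, which should lack the gene. By this share the 7.67% of blood and 7.64% of lymphatic endothelial cells are at that background. By level over whole mesenchyme, blood endothelium held 128 CPM (111 to 146), above immune cells at 86.1 CPM (82.8 to 89.5). Its 2 libraries lay on opposite sides of the immune level. Lymphatic endothelium was below immune cells, at 42.2 CPM (29.7 to 58.2).

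Lum had the same order at its top, with 3572, 2545 and 2364 CPM in the Grem1-Cd81 gate and 2796, 2122 and 1746 CPM in the Pi16 gate. The telocyte gate held 1572, 783 and 714 CPM, above the Mmp10-Aldh1a3 gate at 1007, 343 and 388 CPM in all 3 libraries. The ratio of the telocyte gate to the Grem1-Cd81 gate was 0.440 (0.428 to 0.453) in the sorted library and 0.303 (0.285 to 0.323) over whole mesenchyme. Low-UMI barcodes of the sorted library held Lum at 1973 CPM, Bgn at 2061 CPM and Aspn at 467 CPM, each above the level in the telocyte gate of that library, and the part of free RNA in the sorted ratios of these members was not tested. Smooth muscle cells held 97.3 and 128 CPM, and every endothelial, immune, plasma and glial gate was below 25 CPM.

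Ogn marked the telocyte gate and 3 other gates. It was at 1021, 1286 and 1236 CPM in the telocyte gate, 632, 721 and 598 CPM in the Grem1-Cd81 gate, 507, 417 and 290 CPM in the Pi16 gate and 356 and 387 CPM in smooth muscle. In the Mmp10-Aldh1a3 gate it was at 99.4, 25.2 and 50.3 CPM and in the Dkk2-Adamdec1 gate at 50.8, 56.6 and 38.4 CPM. The telocyte gate was higher than the Dkk2-Adamdec1 gate by 26.3-fold over whole mesenchyme (23.0 to 30.3) and 20.1-fold in the sorted library (17.1 to 23.8), and higher than the Grem1-Cd81 gate by 1.90-fold (1.78 to 2.02) and 1.62-fold (1.54 to 1.70). After thinning, 75.4% of telocyte-gate cells, 53.4% of Grem1-Cd81 cells and 5.89% of Dkk2-Adamdec1 cells of whole mesenchyme had an Ogn UMI, against 0.253% of immune cells. No thinned blood or lymphatic endothelial cell had one. Unthinned, blood endothelial cells held 2.49 CPM (0.68 to 6.37) and lymphatic ones 1.14 CPM (0.03 to 6.35). Both intervals overlapped that of immune cells (1.49 CPM, 1.09 to 1.99), so the bulk call between endothelial sorts was not seen in single cells.

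Bgn was spread over stroma. The Mmp10-Aldh1a3 gate led with 3012, 2603 and 2520 CPM and the Dkk2-Adamdec1 gate followed with 2976, 2458 and 2389 CPM. The telocyte gate was the lowest stromal gate at 1938, 1167 and 1152 CPM, 0.826 times the Grem1-Cd81 gate in the sorted library (0.802 to 0.851) and 0.649 times over whole mesenchyme (0.615 to 0.685). Smooth muscle cells had 798 and 806 CPM and pericytes 336 and 412 CPM. Blood endothelial cells held 228 and 260 CPM and lymphatic endothelial cells 25.7 and 33.4 CPM. After thinning, 17.1% of blood and 2.55% of lymphatic endothelial cells had a Bgn UMI, against 1.56% of immune cells.

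Aspn was lowest among stromal gates in the telocyte gate and highest in the smooth muscle gate. Smooth muscle cells held 761 and 749 CPM and pericytes 658 and 559 CPM, while the telocyte gate held 289, 105 and 137 CPM. The Dkk2-Adamdec1 gate had 614, 649 and 643 CPM and the Grem1-Cd81 gate 570, 475 and 438 CPM. Smooth muscle was 6.19-fold the telocyte gate over whole mesenchyme (5.34 to 7.21), and the telocyte gate was 0.267 times the Grem1-Cd81 gate (0.228 to 0.310) and 0.507 times in the sorted library (0.474 to 0.543). The smooth muscle gate of whole mesenchyme held its own markers at a summed 12395 CPM and Pdgfra at 7.74 CPM, but the markers of the remaining PDGFRA stroma at 6897 CPM, against 6527 CPM in the telocyte gate and 246 CPM in pericytes; their part in Aspn and Podn was not tested. After thinning, 13.3% of telocyte-gate cells and 74.5% of smooth muscle cells had an Aspn UMI, against 0.701% of immune cells. No Aspn UMI was seen in 161 lymphatic endothelial cells, which with 3 UMIs allows up to 3.42 CPM.

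In single cells Prelp led in lymphatic endothelium, not in stroma. The bulk means had the other order, at 597 and 685 CPM in the stromal sorts, against 366 CPM in lymphatic endothelium. The cause of this disagreement was not tested. Lymphatic endothelial cells held 872 and 761 CPM, against 19.8 and 11.3 CPM in blood endothelial cells, a ratio of 52.4 over whole mesenchyme (35.2 to 81.5). After thinning, 75.2% of lymphatic cells had a Prelp UMI, against 0.348% of blood endothelial cells and 0.253% of immune cells. The stromal gates were close to each other, from 113 to 226 CPM over all 3 libraries, with the telocyte gate at 141, 209 and 160 CPM. The telocyte gate was 1.35 times the Grem1-Cd81 gate over whole mesenchyme (1.15 to 1.57) but 0.871 times in the sorted library (0.779 to 0.974), on the other side of 1.

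Podn was low in single cells and highest in smooth muscle, at 255 and 232 CPM. The Dkk2-Adamdec1 gate held 124, 170 and 157 CPM, the Grem1-Cd81 gate 105, 135 and 149 CPM and the telocyte gate 80.4, 82.3 and 101 CPM. Smooth muscle was 2.65-fold the telocyte gate over whole mesenchyme (2.22 to 3.19). The telocyte gate was 0.652 times the Grem1-Cd81 gate over whole mesenchyme (0.536 to 0.790) and 0.767 times in the sorted library (0.664 to 0.885). Fmod was near its detection limit: in the sorted library it had 29 UMIs in 785 Grem1-Cd81 cells, 7.86 CPM, and 1 UMI in 965 telocyte-gate cells. In whole mesenchyme none of 206 telocyte-gate cells had an Fmod UMI, which with 3 UMIs allows up to 1.92 CPM, against 5 UMIs or 1.68 CPM in the Grem1-Cd81 gate, so a difference was not detectable there at this depth.

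**Figure D3:**
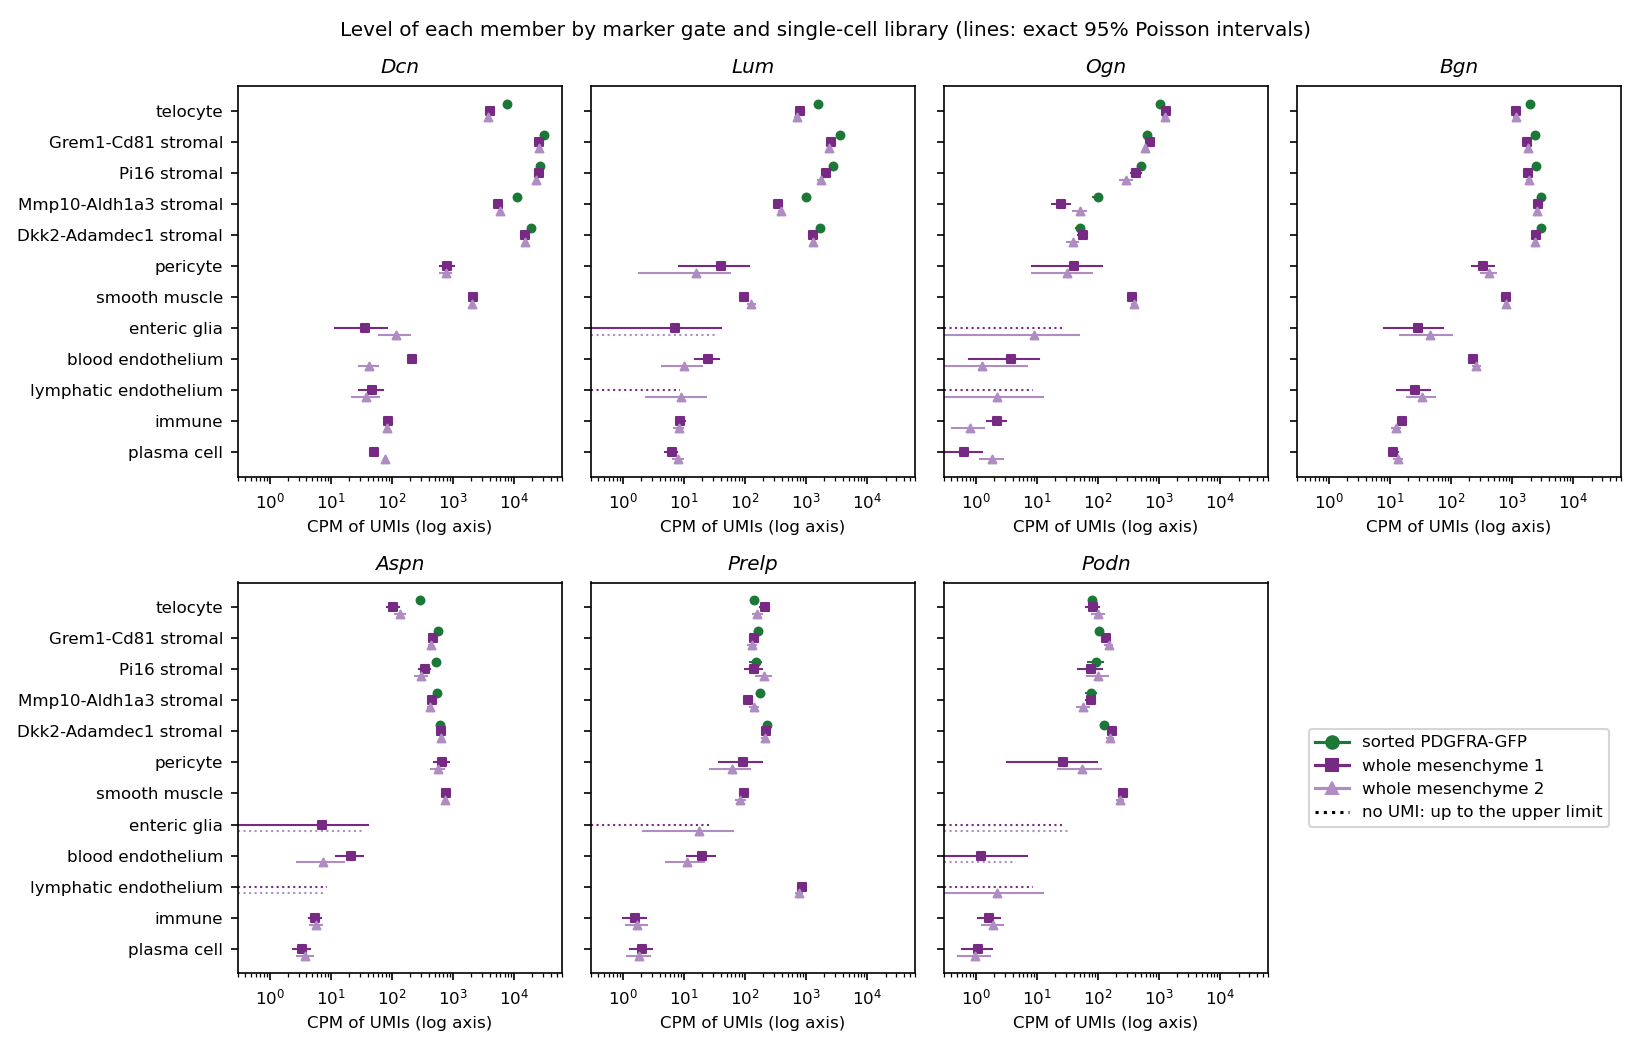
CPM of 7 members in marker gates (log axis), with 1 point per library and its exact 95% Poisson interval, and a dotted line up to the upper limit where no UMI was seen; Fmod, at 13.4 CPM or less in every gate, is not drawn. Dcn and Lum peak in the Grem1-Cd81 gate, Ogn in the telocyte gate, Bgn in the Mmp10-Aldh1a3 gate, Aspn and Podn in smooth muscle and Prelp in lymphatic endothelium.

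Most stromal cells held several members at once. At 2000 UMIs, the median telocyte-gate cell of whole mesenchyme held UMIs of 4 of the 8 members, and 62.1% of these cells held 4 or more. The share with 4 or more was 82.5% in the Grem1-Cd81 gate, 79.5% in the Dkk2-Adamdec1 gate, 40.8% in the Mmp10-Aldh1a3 gate and 46.8% in smooth muscle. Of blood endothelial cells 73.9% held none of the 8, as did 22.9% of lymphatic endothelial cells, in which Prelp was the most often seen, and 88.4% of immune cells.

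**Figure D4:**
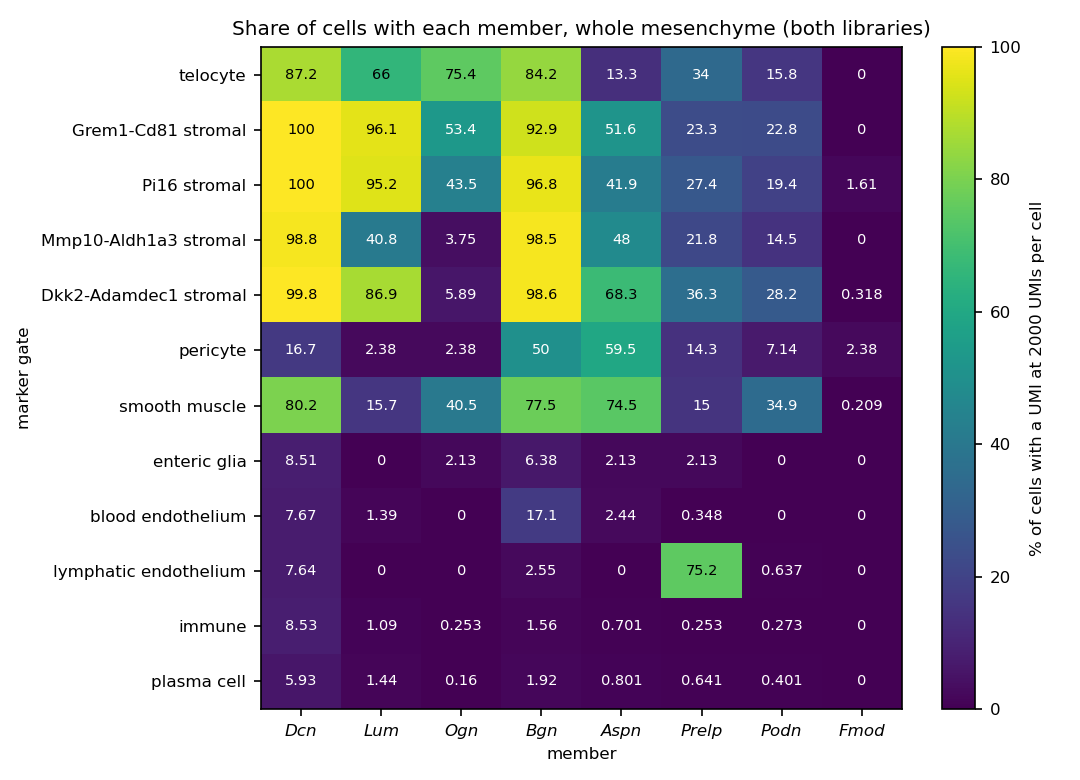
Percent of whole-mesenchyme cells with a UMI of each member after thinning every cell to 2000 UMIs, by gate. Prelp is seen in 75.2% of lymphatic endothelial cells and 0.348% of blood endothelial cells, and Ogn in 75.4% of telocyte-gate cells and 5.89% of Dkk2-Adamdec1 cells.

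Within the telocyte gate, cells with UMIs of Wif1 or Chrd were set beside cells with Slitrk6 and cells with neither, and cells with both were left out. The sorted library had 564, 81 and 280 such cells, with median depths of 5211, 4253 and 3891 UMIs, and whole mesenchyme 107, 43 and 39. Aspn was the member with the widest span in the sorted library, at 120 CPM in Wif1-Chrd cells, 1025 CPM in Slitrk6 cells and 413 CPM in cells with neither. In whole mesenchyme it was at 81.5 CPM (interval 63.4 to 103), 188 CPM (143 to 242.5) and 169 CPM (121 to 228), so by level Wif1-Chrd cells were lowest in both. By share they were not lowest in each library: in whole mesenchyme 2 an Aspn UMI was seen in 10 of 52 Wif1-Chrd cells (19.2%) and 4 of 22 Slitrk6 cells (18.2%). Over both whole-mesenchyme libraries it was seen in 18 of 107 Wif1-Chrd cells (16.8%), 12 of 43 Slitrk6 cells (27.9%) and 10 of 39 cells with neither (25.6%). Ogn was at 871, 1531 and 1195 CPM in the sorted library but at 1188, 1154 and 1196 CPM in whole mesenchyme, where the intervals of the 3 overlapped. Dcn was at 7718, 7344 and 7158 CPM in the sorted library, and at 4872, 2243 and 2869 CPM in whole mesenchyme, where the Wif1-Chrd cells stood higher than both others. Bgn was highest in the Wif1-Chrd cells of both kinds of library, at 2099 CPM against 1470 CPM in Slitrk6 cells when sorted, and at 1298 CPM against 969 CPM in whole mesenchyme.

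**Figure D5:**
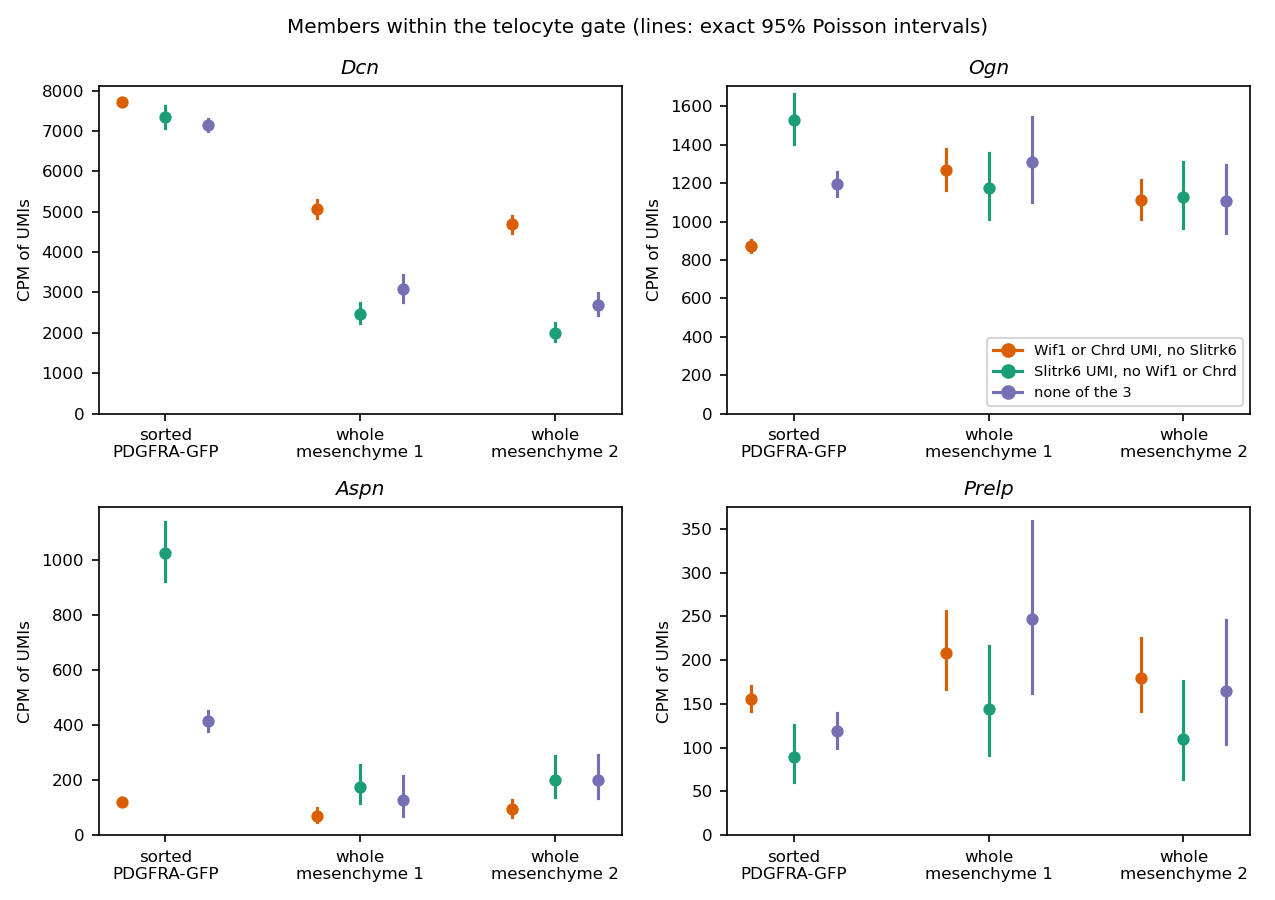
CPM of Dcn, Ogn, Aspn and Prelp in 3 sub-gates of the telocyte gate, for the sorted library and each whole-mesenchyme library; points are summed levels and lines exact 95% Poisson intervals. Aspn is lowest in Wif1-Chrd cells in each library (120 CPM in the sorted one), while the Ogn intervals overlap within each whole-mesenchyme library and stand apart in the sorted library.

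Other SLRPs had their own gates. Ecm2, the neighbour of Aspn, was at 136 CPM in the Grem1-Cd81 gate, 157 CPM in pericytes and 29.4 CPM in the telocyte gate of whole mesenchyme, and at 59.3 CPM in lymphatic against 9.96 CPM in blood endothelial cells. Epyc was at 11.8 CPM in the Grem1-Cd81 gate of whole mesenchyme and 23.3 CPM in that of the sorted library, with no UMI in the telocyte gate of either. Optc, the neighbour of Prelp, was at 23.2 CPM in smooth muscle. Podnl1, the class V relative of Podn, was at 49.5 CPM in immune cells, and Chad was at 21.3 CPM there. Omd was at 7.07 CPM in the Grem1-Cd81 gate, and Kera had no UMI in any gate.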

How the data were processed

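The members and all gene lists were chosen with earlier results of these data known. The authors deposited bulk data as unscaled counts in whole numbers for each gene symbol. STAR and mm10 are named in the submitters' processing notes; how reads were counted, and with which annotation and strand, is not given in the sources used here, so reads of overlapping genes cannot be told apart. For single cells the deposited files are Cell Ranger matrices of UMI counts (version 2.1.1 for the sorted library, 3.0.2 for whole mesenchyme, per the submitters' processing notes).

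The test was edgeR's quasi-likelihood F-test (edgeR 4.0.16, R 4.3.3) after filterByExpr and TMM, in 1 model of all 8 libraries (4 residual degrees of freedom, common biological coefficient of variation 0.381), adjusted by Benjamini-Hochberg over 14893 genes. DESeq2 1.42.0 was an alternative. The 26 names that had been turned into dates (0.131% to 0.523% of counts) were left out. The scripts were tested on simulated data. Correlations used log2 CPM with a prior count of 2. Named were the 8 members, the 3 nearest genes of each, and the 2 genes with the smallest p of each list. A gene that this rule selects is not reported here. Single-cell genes other than members were chosen after their values were seen.

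Cells needed at least 500 genes and less than 10% mitochondrial UMIs, and doublets with a scrublet score over 0.25 (scanpy 1.11.5) were removed (45, 98 and 113). The markers of the gates were written down with the lists, but the gate rule and the doublet limit were set after seeing the data. A gate needed at least 50% of its markers and a lead over the next gate, and the telocyte gate at least 3 of its 8. The telocyte share was raised by 0.2 before gates were compared. Stromal cells with at least 2 Pi16-gate markers, Pi16 among them, went to that gate without a lead. Pericytes needed Notch3, and could enter without a lead with at least 3 pericyte markers and no Pdgfra. Cells of no gate, and stromal cells of no subset, were left out of the comparisons. For the whole-mesenchyme libraries, 5.19% of gene values within gates differed past 1.96 standard errors, where sampling alone gives about 5%; by gate this was 2.77% (pericyte) to 8.15% (enteric glia), with 6.10% in the immune gate, and 2 of 57 values of members were past it, Lum in the Grem1-Cd81 gate and Podn in the Mmp10-Aldh1a3 gate. PCR and droplet counting limits mean that intervals cover counting error only. Coordinates are 1-based.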

Additional observations from a re-analysis of the deposited data

How the results depend on the processing

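Alternatives were another size factor, DESeq2, no low-count filter, a replicate block, the 4 libraries of one sort alone, each library left out, and for single cells stricter gates, 1000 genes per cell, doublets kept, free RNA taken off and each whole-mesenchyme library alone. The 7 stromal calls, and the calls of Prelp and Bgn between endothelial sorts, held under every alternative run; the highest adjusted p was 0.0498, for Bgn. The 7 members other than Fmod kept the same highest gate in all 6 single-cell alternatives; that of Fmod rests on 2 UMIs in 43 pericytes.

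Members called lower in telocytes than in PDGFRAlo cells numbered 1 under DESeq2's size factors in edgeR. When 1 library was left out, members called lower ranged from 0 to 3, members called higher from 0 to 1, and genes called in all from 1047 to 2274. Members called higher in blood endothelium numbered 1 in the 4 endothelial libraries alone and 1 to 2 with a library left out, with 1168 to 3304 genes called in all. The cause was not tested.

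Signs turned only for members not called in that comparison. With 1 library left out, the log2 fold of Prelp between telocytes and PDGFRAlo cells ranged from -0.63 to 0.13. Between blood and lymphatic endothelium it ranged from -0.42 to 1.03 for Dcn, -0.57 to 1.09 for Lum and -2.70 to 1.35 for Podn. Lum was -0.063 under DESeq2's size factors, -0.065 in DESeq2 and -0.046 in the 4 endothelial libraries alone, and Podn was -0.024 under those size factors. Fmod was called higher in stroma with no filter (adjusted p = 0.0313) and without blood library 2 (0.0307).

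Correlations of same-numbered deviations were 0.098 between telocytes and PDGFRAlo cells and 0.195 between blood and lymphatic endothelium. Between sorts of different mouse lines they were -0.103 to 0.006. Neither these values nor the labels can tell whether same-numbered libraries share animals. With the number as a replicate block, Dcn was called lower in telocytes (log2 fold -2.11, adjusted p = 0.0373); no other member's call changed.

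When a group is left with 1 library, that library is taken to vary like the others. Another size factor moved the median of all genes by less than 0.1 (log2) in each comparison. Fmod and the lowest endothelial levels are limited by depth.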
